A study of Mus musculus with 12 samples.

Results

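The transcripts of 10 glycolytic enzymes were followed in mouse resting B cells, which the study calls RB cells. The enzymes were Hk1, Hk2, Pfkl, Pfkp, Aldoa, Tpi1, Pgk1, Pgam1, Eno1 and Ldha, and every non-control spot on the array that carried one of these gene names was taken. These are 10 of the 50090 gene names on the array, with 19 of its 61307 probes, and each gene was read from its brightest unsaturated probe, other than Aldoa, whose probe was saturated on 1 array. RB cells of female BALB/c mice of 6 weeks, for which the labels name no transgene or deletion, were cultured for 4 h and hybridised to 12 one-colour arrays, 2 for each of 6 conditions. The conditions were no stimulus (unstimulated), Pam2csk4, anti-CD86, anti-CD86 and Pam2csk4, anti-CD40, and anti-CD40 and Pam2csk4. Pam2csk4 is a synthetic lipopeptide that binds TLR-2, a receptor of the innate immune system. The anti-CD86 antibody was biotinylated and cross-linked with streptavidin on CD86, a costimulatory molecule, and anti-CD40 binds the receptor through which T cells activate B cells. The methods give the cells as splenic B cells left after CD43-bearing cells were removed. The study calls its array samples biological replicates, and the labels do not say whether the 2 arrays of a condition came from separate mice, so that the p-values measure the spread between these samples.

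Glycolysis splits glucose into pyruvate in the cytosol and yields ATP without oxygen. Hexokinases trap glucose in the cell as glucose 6-phosphate, phosphofructokinases commit it to the pathway, aldolase and triose phosphate isomerase make and interconvert the triose phosphates, and the enzymes from phosphoglycerate kinase to enolase carry these on towards pyruvate. Lactate dehydrogenase A then reduces pyruvate to lactate, which restores the NAD+ that the pathway consumes. Resting B cells use little glucose, and activated B cells are known to take up more of it and to raise glycolysis. The hypoxia-inducible factors and Myc are textbook activators of glycolytic genes, and both bind DNA at sites that share the letters ACGTG.

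All 10 genes had promoter windows in RefSeq (build GRCm38.p6), 16 in number, each of 300 bases that reach from upstream of a gene start to just past it. The windows of Hk2, Hk1 and Pgam1 are shown, since the calls in the comparisons with anti-CD40 turn mostly on them. Capitals mark ACGTG on either strand, so that a match on the other strand reads CACGT.
Hk2, chr6:82774405-82774704, minus strand: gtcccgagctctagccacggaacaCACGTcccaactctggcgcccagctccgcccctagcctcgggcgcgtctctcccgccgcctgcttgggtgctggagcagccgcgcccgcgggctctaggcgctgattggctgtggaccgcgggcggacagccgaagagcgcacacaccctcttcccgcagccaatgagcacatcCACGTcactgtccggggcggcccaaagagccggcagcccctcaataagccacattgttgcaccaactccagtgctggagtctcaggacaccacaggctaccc
Hk1 upstream window, chr10:62379859-62380158, minus strand: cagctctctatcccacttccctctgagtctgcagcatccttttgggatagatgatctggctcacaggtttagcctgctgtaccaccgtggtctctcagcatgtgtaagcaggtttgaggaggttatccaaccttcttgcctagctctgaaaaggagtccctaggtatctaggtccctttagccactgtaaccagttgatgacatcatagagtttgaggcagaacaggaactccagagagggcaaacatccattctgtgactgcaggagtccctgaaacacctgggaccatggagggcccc
Hk1 downstream window, chr10:62340372-62340671, minus strand: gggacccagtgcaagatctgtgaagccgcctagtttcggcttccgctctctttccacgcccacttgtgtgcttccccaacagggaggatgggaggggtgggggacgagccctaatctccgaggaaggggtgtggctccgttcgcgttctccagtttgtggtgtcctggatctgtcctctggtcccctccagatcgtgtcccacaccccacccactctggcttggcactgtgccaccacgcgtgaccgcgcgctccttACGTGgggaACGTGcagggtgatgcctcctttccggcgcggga
Pgam1, chr19:41911621-41911920, plus strand: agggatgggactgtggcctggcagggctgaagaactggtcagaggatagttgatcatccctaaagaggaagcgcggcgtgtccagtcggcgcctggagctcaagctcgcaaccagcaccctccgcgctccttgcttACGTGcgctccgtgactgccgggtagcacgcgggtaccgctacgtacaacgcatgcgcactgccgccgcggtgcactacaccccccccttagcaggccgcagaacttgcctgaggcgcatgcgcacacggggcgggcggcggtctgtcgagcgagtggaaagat
Hk2 held 2 matches, the upstream window of Hk1 held none, the downstream window of Hk1 held 2 and Pgam1 held 1. Eno1, whose windows are not shown, was also called in comparisons with anti-CD40, and none of its windows held a match. Ldha had the most, with 5 in one of its windows, and these included both sites of the longer palindrome CACGTG, which contains ACGTG on each strand. Matches to ACGTG were found in 7 of the 16 windows, from 6 of the 10 genes, and in 19.6% of all 32851 promoter windows in the RefSeq table. The Aldoa windows with a match overlap and share the same site, so that the 7 windows are not separate counts. CACGTG was found in 1 of the 16, of Ldha, and in 7.15% of all windows. These matches describe the letters in the windows and not binding.

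The arrays lay on 2 slides. Both unstimulated arrays, both arrays of anti-CD40 and Pam2csk4 and replicate 1 of the other conditions were on slide 1, whereas replicate 2 of Pam2csk4, of anti-CD86, of anti-CD86 and Pam2csk4 and of anti-CD40 was on slide 2. Of the 31596 probes tested, 18061 differed between the slides in a fit that held a slide term, and 6 of the 10 genes (Hk1, Pfkl, Aldoa, Tpi1, Pgk1 and Pgam1) were lower on slide 2 by 0.24 to 0.40 on the log2 scale. Each result is therefore given from the fit of the conditions alone and, where its call differs, from a slide-blocked fit, which adds a term for the slide. Without that term the pooled spread includes the difference between slides. The median absolute log2 difference between replicates was 0.089 (unstimulated) and 0.105 (anti-CD40 and Pam2csk4) within slide 1. It was 0.21 to 0.33 in the conditions split over both slides. Replicate 2 of anti-CD40 stood furthest apart, with the highest median intensity (51.3 against 17.3 to 33.5 on the other arrays). All 9 B cell markers read, Ms4a1 and Cd79a among them, were well above background on all arrays, but so were 9 of 10 T cell markers, 7 of 8 NK cell markers and 10 of 10 myeloid markers. In such bulk samples fewer cells of a type and less RNA per cell cannot be told apart.

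Of the 10 genes, Hk2 had the largest change in both conditions with anti-CD40 against unstimulated cells. It encodes the inducible hexokinase that can sit on mitochondria. Values are log2 signals after the 75th percentile of each array was set to 0, so that 1 unit is a doubling. The Hk2 signal was 2.76 and 2.89 on the unstimulated arrays, 3.01 and 2.97 with Pam2csk4, 2.56 and 2.68 with anti-CD86, 2.65 and 2.54 with anti-CD86 and Pam2csk4, 3.75 and 3.59 with anti-CD40, and 3.53 and 3.50 with anti-CD40 and Pam2csk4. The 4 arrays with anti-CD40 lay above the other 8 without overlap. Hk2 rose 1.79-fold with anti-CD40 (log2 fold change 0.84 ± 0.11 (SE, n = 2 against 2), limma adjusted p = 0.00456) and 1.62-fold with anti-CD40 and Pam2csk4 (0.69 ± 0.11, adjusted p = 0.00512). The log2 fold changes were 0.87 and 0.69 in the slide-blocked fit and 0.92 and 0.69 on slide 1 alone, each past the threshold. Without replicate 2 of anti-CD40 the log2 fold change was 0.92. Both calls were lost without replicate 1 of the unstimulated cells (adjusted p = 0.0532 for anti-CD40 and 0.0548 for anti-CD40 and Pam2csk4), although the log2 fold changes stayed at 0.78 and 0.63.

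The order of the Hk2 means ran from anti-CD86 and Pam2csk4 (2.60 ± 0.08, SD, n = 2) over anti-CD86 (2.62 ± 0.09), unstimulated (2.82 ± 0.09), Pam2csk4 (2.99 ± 0.03) and anti-CD40 and Pam2csk4 (3.52 ± 0.02) to anti-CD40 (3.67 ± 0.11). Among neighbours in this order, the arrays of the lowest pair overlapped and the rest did not. The stimuli were also compared with one another. Hk2 was higher with anti-CD40 and Pam2csk4 than with Pam2csk4 (log2 fold change 0.53 ± 0.11, adjusted p = 0.0240) and than with anti-CD86 and Pam2csk4 (0.92 ± 0.11, adjusted p = 0.00272). The first of these calls was lost without any one of its 4 arrays (adjusted p from 0.0787 to 0.148), and the second was kept. Anti-CD40 was set against anti-CD86 and against Pam2csk4 after the data were seen, because each of these conditions had 1 array on either slide. Hk2 was 2.06-fold higher with anti-CD40 than with anti-CD86 (adjusted p = 0.00202), by 1.18 on slide 1 and by 0.91 on slide 2 on the log2 scale. Against Pam2csk4 it was 1.60-fold higher (adjusted p = 0.0187), by 0.74 on slide 1 and by 0.62 on slide 2, but this call was lost without either Pam2csk4 array or replicate 1 of anti-CD40 (adjusted p = 0.0748, 0.104 and 0.0506). The difference of 0.15 between the 2 conditions with anti-CD40 did not pass (95% confidence interval of anti-CD40 and Pam2csk4 against anti-CD40, -0.41 to 0.11).

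Hk1 moved the other way. It encodes the hexokinase that most tissues make constitutively. Its signal was 3.64 and 3.66 on the unstimulated arrays, 3.46 and 3.23 with Pam2csk4, 3.31 and 3.13 with anti-CD86, 3.37 and 3.14 with anti-CD86 and Pam2csk4, 3.16 and 2.85 with anti-CD40, and 2.99 and 3.05 with anti-CD40 and Pam2csk4. For this probe, the brightest of Hk1, all 10 stimulated arrays lay below both unstimulated ones. Hk1 fell 1.56-fold with anti-CD40 (log2 fold change -0.64 ± 0.15, adjusted p = 0.0283) and 1.54-fold with anti-CD40 and Pam2csk4 (-0.63 ± 0.15, adjusted p = 0.0255). The values were -0.52 and -0.63 in the slide-blocked fit and -0.49 and -0.63 on slide 1 alone, all past the threshold. The call for anti-CD40 was lost when replicate 1 or 2 of the unstimulated cells or replicate 2 of anti-CD40 was left out (adjusted p = 0.137, 0.150 and 0.134), and that for anti-CD40 and Pam2csk4 without any of its 4 arrays (adjusted p from 0.110 to 0.135).

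With anti-CD86 the Hk1 log2 fold change was -0.43 ± 0.15 (adjusted p = 0.149), and with anti-CD86 and Pam2csk4 it was -0.39 ± 0.15 (adjusted p = 0.126). Both passed in the slide-blocked fit, at -0.31 (adjusted p = 0.0102) and -0.27 (adjusted p = 0.0115). With Pam2csk4 it was -0.30 (95% confidence interval -0.65 to 0.05) and passed in neither fit. The means of anti-CD40 and of anti-CD40 and Pam2csk4, 3.01 ± 0.22 and 3.02 ± 0.04, were the lowest, and the arrays of these neighbours overlapped. Hk1 had 5 further probes. Of these, 2 were well above background on all arrays and passed the threshold in neither condition with anti-CD40 (log2 fold changes of 0.30 and -0.52 with anti-CD40, and of 0.00 and -0.52 with anti-CD40 and Pam2csk4), whereas 3 were well above background on 0 to 4 arrays. Without anti-CD40 the first of these 2 probes rose. It was -2.61 and -2.78 on the unstimulated arrays and -2.29 and -2.39 with Pam2csk4. With anti-CD86 it was -2.02 on both arrays, and with anti-CD86 and Pam2csk4 -1.95 and -1.67. The second overlapped its unstimulated arrays in each of these conditions. The Hk1 falls without anti-CD40 thus rest on the brightest probe, and so do the calls with anti-CD40.

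Because both hexokinase probes were read on the same array, their difference does not depend on the scaling of that array. The log2 difference between Hk2 and Hk1, set to 0 at the unstimulated mean, was 1.41 and 1.56 with anti-CD40 and 1.36 and 1.28 with anti-CD40 and Pam2csk4. It was 0.37 and 0.56 with Pam2csk4, 0.07 and 0.38 with anti-CD86, and 0.11 and 0.22 with anti-CD86 and Pam2csk4. The unstimulated arrays differed by 0.10. The pair was chosen because one gene rose and the other fell, so that these differences describe the same changes and add no test. They also rest on the brightest of the 3 Hk1 probes well above background on all arrays, of which one other gave 0.30 with anti-CD40 and 0.00 with anti-CD40 and Pam2csk4.

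**Figure D1:**
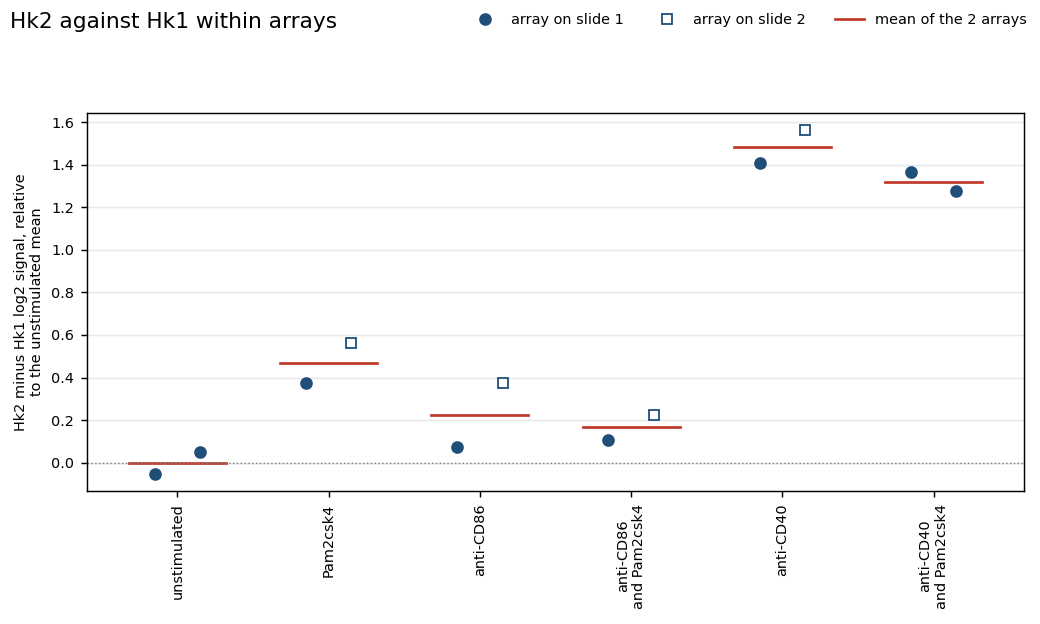
Difference between the Hk2 and the Hk1 log2 signal on each array (y axis, log2 units, 0 at the mean of the unstimulated arrays) for the 6 conditions, with filled circles for slide 1, open squares for slide 2 and a line at each mean of 2 arrays. The 4 arrays with anti-CD40 lie between 1.28 and 1.56, and the other arrays at 0.56 or below.

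Phosphofructokinase catalyses the committed step, and its subunits are encoded by Pfkl, named for liver, and Pfkp, named for platelet. Pfkl ranged over all arrays from 0.23 to 1.05, and neighbouring conditions in the order of its means all overlapped. It passed in no comparison of the fit without a slide term. In the slide-blocked fit it was higher with anti-CD86 and Pam2csk4 than in unstimulated cells (log2 fold change 0.40, adjusted p = 0.0107) and than with anti-CD86 (0.38, adjusted p = 0.0382). Without the block these values were 0.20 and 0.38. The first of them was -0.048 when replicate 1 of anti-CD86 and Pam2csk4, the highest array at 1.05, was left out.

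Pfkp was 1.15 and 1.23 on the unstimulated arrays and 1.77 on both arrays with anti-CD86. It was 1.76 and 1.45 with anti-CD86 and Pam2csk4, 1.48 and 1.43 with Pam2csk4, 1.41 and 1.22 with anti-CD40, and 1.43 and 1.34 with anti-CD40 and Pam2csk4. The anti-CD86 arrays were the highest, by a margin under the spread of the condition with anti-CD86 and Pam2csk4. The log2 fold change of 0.58 ± 0.13 with anti-CD86 did not pass (adjusted p = 0.0626), nor did that of 0.42 ± 0.13 with anti-CD86 and Pam2csk4 (adjusted p = 0.0789). Blocking on slide, both passed, at 0.65 (adjusted p = 0.00515) and 0.48 (adjusted p = 0.00965), and Pfkp was lower with anti-CD40 than with anti-CD86 (-0.46, adjusted p = 0.00906). The second Pfkp probe read -2.58 and -2.40 in unstimulated cells. It was well above background on those arrays and replicate 2 of anti-CD40 alone, so that it gives no level for the conditions with anti-CD86. Its readings there lay below the unstimulated ones, at -4.84 and -4.70 with anti-CD86 and -4.21 and -5.34 with anti-CD86 and Pam2csk4. The 2 Pfkp probes thus differ in direction in these conditions, and the rises rest on the brighter one.

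Aldoa encodes the aldolase of muscle and most other tissues. Its signal was 7.48 and 7.43 on the unstimulated arrays and below both of these on 9 of the 10 stimulated arrays, down to 7.17 and 6.77 with anti-CD40 and 7.04 and 7.08 with anti-CD40 and Pam2csk4. Replicate 1 of the unstimulated cells was saturated for this probe, so that its value is a lower bound. The log2 fold changes of -0.48 ± 0.20 with anti-CD40 (adjusted p = 0.136) and -0.39 ± 0.20 with anti-CD40 and Pam2csk4 (adjusted p = 0.213) did not pass. In the slide-blocked fit they did, at -0.30 (adjusted p = 0.00641) and -0.39 (adjusted p = 0.00131). The other Aldoa probe was saturated on 8 arrays and gives no measure of a change.

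Tpi1 encodes triose phosphate isomerase. It was 3.35 and 3.39 on the unstimulated arrays, 2.98 and 2.65 with anti-CD40 and 3.10 and 2.75 with anti-CD86 and Pam2csk4. It was 3.18 and 3.25 with anti-CD40 and Pam2csk4, above both anti-CD40 arrays. The log2 fold change with anti-CD40 was -0.56 ± 0.17 (adjusted p = 0.0582), and -0.42 after blocking on slide (adjusted p = 0.00351). With anti-CD86 and Pam2csk4 it was -0.44 ± 0.17 (adjusted p = 0.122) and -0.31 (adjusted p = 0.0128), in the same order.

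Pgk1 encodes phosphoglycerate kinase, which makes the first ATP of the pathway. It lay between 5.02 and 5.51 over all arrays. Against unstimulated cells its log2 fold changes lay between -0.29 (95% confidence interval -0.66 to 0.08), with anti-CD40, and 0.02 (-0.35 to 0.38), with anti-CD40 and Pam2csk4, and none passed in either fit. A difference above a log2 value of 0.66 in either direction lay outside each of these 5 intervals. Its second probe gave -0.23 and 0.06 in the same conditions.

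Pgam1 encodes phosphoglycerate mutase. The signal was 5.63 and 5.59 on the unstimulated arrays, 5.68 and 5.34 with Pam2csk4, 5.57 and 5.40 with anti-CD86, 5.52 and 5.28 with anti-CD86 and Pam2csk4, 6.00 and 5.63 with anti-CD40, and 6.21 and 6.16 with anti-CD40 and Pam2csk4. Both arrays of the last condition lay above all others. It was 1.60-fold higher with anti-CD40 and Pam2csk4 than with Pam2csk4 (log2 fold change 0.67 ± 0.17, adjusted p = 0.0445) and 1.72-fold higher than with anti-CD86 and Pam2csk4 (0.79 ± 0.17, adjusted p = 0.0228). Blocking on slide gave 0.54 (adjusted p = 0.00198) and 0.65 (adjusted p = 0.000828). The first call was lost without any one of its 4 arrays (adjusted p from 0.0547 to 0.240), and the second without either array of anti-CD40 and Pam2csk4 or replicate 2 of anti-CD86 and Pam2csk4 (adjusted p from 0.112 to 0.130). Against unstimulated cells the log2 fold change of 0.58 ± 0.17 just missed the threshold (adjusted p = 0.0509) and passed in the slide-blocked fit (adjusted p = 0.000618). With anti-CD40 alone it was 0.21 ± 0.17 (adjusted p = 0.417), and 0.35 after blocking on slide (adjusted p = 0.00820).

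Eno1 encodes the enolase of most tissues. Its only probe was dim but well above background on every array. It was -1.12 and -1.28 on the unstimulated arrays, -0.99 and -1.18 with Pam2csk4, -0.84 and -1.12 with anti-CD86, -0.96 and -0.92 with anti-CD86 and Pam2csk4, -1.57 and -1.48 with anti-CD40, and -1.41 and -1.58 with anti-CD40 and Pam2csk4. The 4 arrays with anti-CD40 were the lowest, without overlap. Eno1 was 1.47-fold lower with anti-CD40 and Pam2csk4 than with anti-CD86 and Pam2csk4 (log2 fold change -0.55 ± 0.14, adjusted p = 0.0372) and 1.45-fold lower with anti-CD40 than with anti-CD86 (-0.54 ± 0.14, adjusted p = 0.0457). Both passed in the slide-blocked fit (-0.59 and -0.54), and neither on slide 1 alone (-0.53 and -0.72, adjusted p = 0.0693 and 0.0688). Neither passed with normexp background correction (-0.30 and -0.32) or without any one of the arrays compared (adjusted p from 0.0931 to 0.220 and from 0.0696 to 0.260). Against unstimulated cells the values of -0.32 with anti-CD40 and -0.29 with anti-CD40 and Pam2csk4 passed in neither fit.

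Ldha encodes lactate dehydrogenase A. Its signal was 6.16 on both unstimulated arrays and between 5.67 and 6.03 on the 10 stimulated ones, with the lowest values, 5.71 and 5.67, with anti-CD40 and Pam2csk4. Against unstimulated cells Ldha fell 1.38-fold in that condition (log2 fold change -0.47 ± 0.12, adjusted p = 0.0325), with the same value on slide 1 alone. The call was lost without any one of the 4 arrays (adjusted p from 0.132 to 0.165). With anti-CD86 and Pam2csk4 the value was -0.38 ± 0.12 (adjusted p = 0.0800), and -0.34 after blocking on slide (adjusted p = 0.0322). The second Ldha probe, also well above background on all arrays, gave 0.21 ± 0.20 with anti-CD40 and Pam2csk4 (adjusted p = 0.530), so that the probes of this gene disagree in sign and the fall rests on the brighter one.

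**Figure D2:**
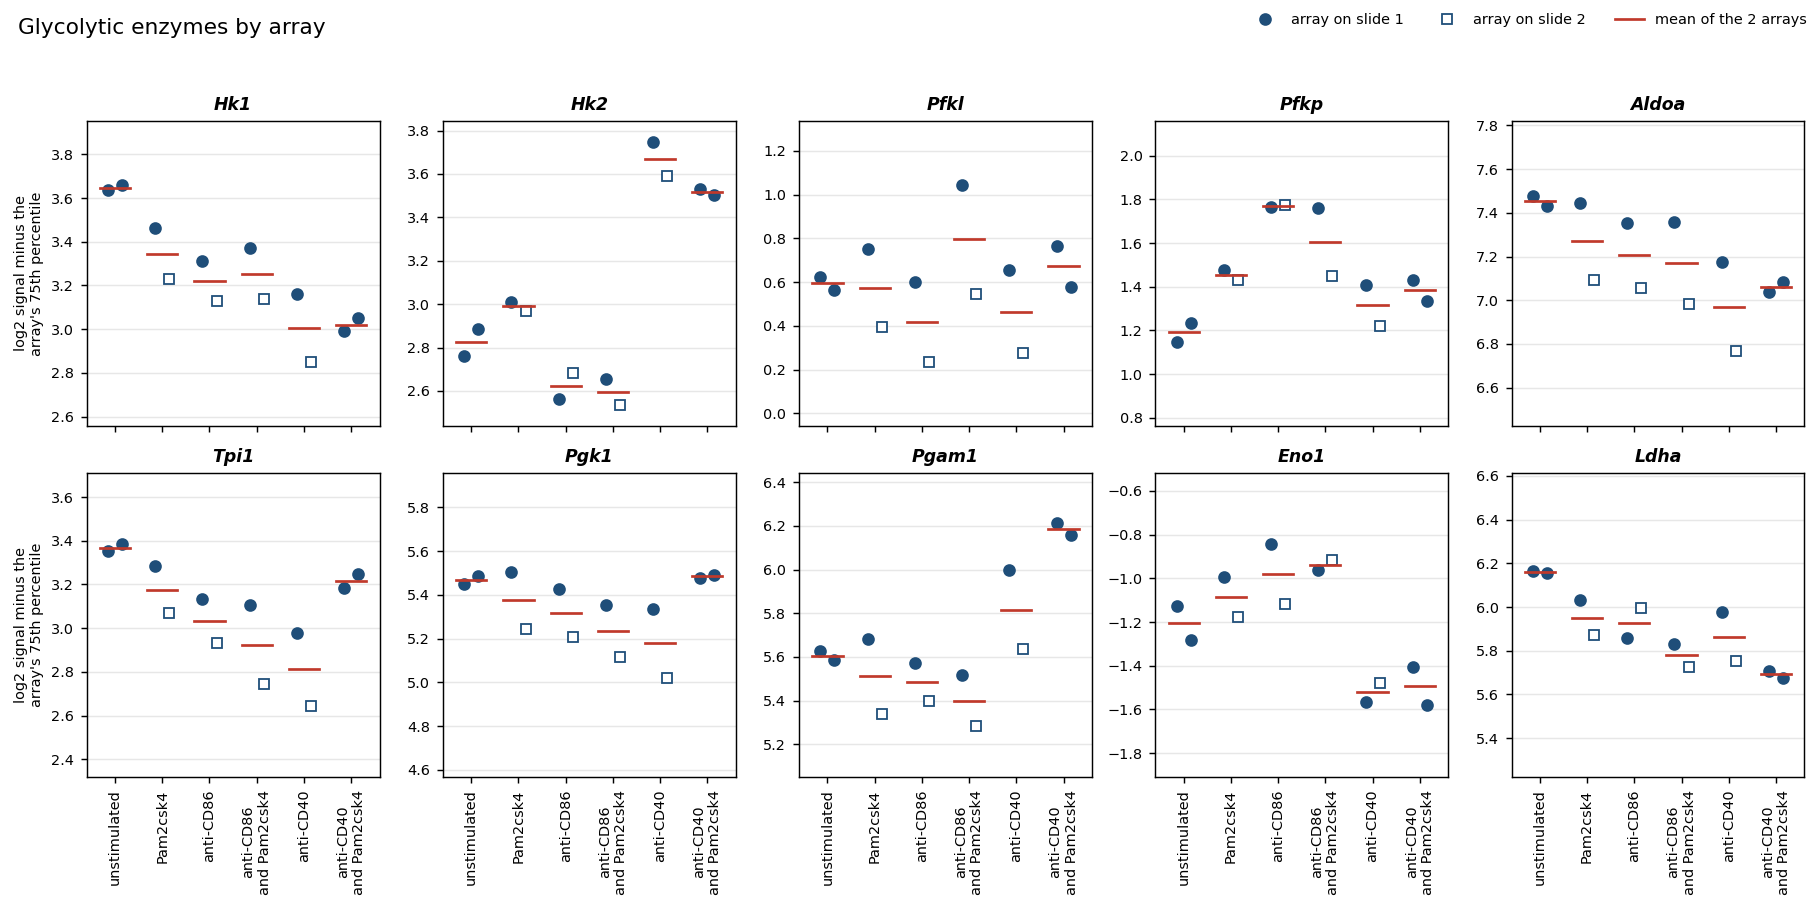
Log2 signal of the 10 glycolytic enzymes on the 12 arrays (y axis, log2 units with the 75th percentile of each array at 0, and a range of its own in each panel) by condition, with filled circles for slide 1, open squares for slide 2 and a line at each mean of 2 arrays. Hk2 is highest on the 4 arrays with anti-CD40, between 3.50 and 3.75, and Hk1 is highest on the unstimulated arrays, at 3.64 and 3.66.

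The summed signals of myeloid and NK cell markers were highest in unstimulated cells, as were Hk1, Aldoa, Tpi1 and Ldha. Summed T cell and plasma cell signals were also highest there, at 4.81 to 4.83 and at 7.45. Of 10 myeloid markers, 4 were lower with anti-CD40, 6 with anti-CD40 and Pam2csk4 and 6 with anti-CD86 and Pam2csk4. None was higher without a slide term. In the slide-blocked fit 6, 7 and 6 were lower and 0, 1 and 1 higher, in the same order. Their summed log2 signal was at least 8.91 on the unstimulated arrays, 8.43 to 8.66 with anti-CD40 and 8.71 to 8.89 with anti-CD40 and Pam2csk4. It was 8.47 to 8.60 with anti-CD86 and 8.37 to 8.57 with anti-CD86 and Pam2csk4. Both of these ranges lay below that with anti-CD40 and Pam2csk4. Mpo, the myeloperoxidase of granulocytes, was 7.24 and 7.27 on the unstimulated arrays and 5.71 to 6.70 on the others. All 10 were well above background on every array. Of 8 NK cell markers, 4 were lower with anti-CD40, 2 with anti-CD40 and Pam2csk4 and 4 with anti-CD86 and Pam2csk4. None was higher without a slide term. In the slide-blocked fit 4, 4 and 5 were lower and 0, 1 and 0 higher, in the same order. Their summed log2 signal was 4.49 to 4.51 on the unstimulated arrays, 3.79 to 4.06 with anti-CD40 and 4.11 to 4.17 with anti-CD40 and Pam2csk4, and 7 of them were well above background on every array. The part of any of these cell types in the falls of Hk1 and Ldha was not tested. Skeletal muscle markers were also read, and their part in the rise of Hk2 was not tested. Of 10, 6 were tested, and 2 were higher with anti-CD40 (median log2 fold change 0.57), 3 with anti-CD40 and Pam2csk4 (0.75) and 1 with anti-CD86 and Pam2csk4 (0.62). None was lower without a slide term. In the slide-blocked fit 4, 4 and 3 were higher and 1, 1 and 0 lower, in the same order. Their summed log2 signal was 2.15 to 2.18 on the unstimulated arrays, 2.36 to 2.49 with anti-CD40, 2.60 to 2.64 with anti-CD40 and Pam2csk4 and 2.34 to 2.62 with anti-CD86 and Pam2csk4. With Pam2csk4 the sum was 2.05 to 2.34. With anti-CD86 it was 2.31 to 2.52. There no muscle marker was called without a slide term, and 3 were higher in the slide-blocked fit. Ckm and Mb, the creatine kinase and myoglobin of muscle, were well above background on no array.

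Counted over all members, 2 of 10 were called with anti-CD40 (Hk2 higher, Hk1 lower), where 16.9% of all probes tested were called. With anti-CD40 and Pam2csk4 there were 3 of 10 (Hk2 higher, Hk1 and Ldha lower) against 18.2% of probes. None of the 10 was called with Pam2csk4 (0.146% of probes), anti-CD86 (2.17%) or anti-CD86 and Pam2csk4 (10.8%) by limma, and 0, 2 and 4 of them had an unadjusted p under 0.05 in these comparisons. Without empirical Bayes moderation 0, 1 (Pfkp) and 0 were called. These shares lie near the background of each comparison. In the slide-blocked fit the counts were 5 of 10 with anti-CD40 (37.3% of probes), 5 with anti-CD40 and Pam2csk4 (47.5%), 0 with Pam2csk4 (11.1%), 2 with anti-CD86 (28.5%) and 5 with anti-CD86 and Pam2csk4 (35.1%), again near the background. The median log2 fold change of the members was -0.29 with anti-CD40 and -0.07 with anti-CD40 and Pam2csk4, beside -0.02 and 0.01 over all probes. After blocking on slide the first of these was -0.21 beside 0.00. The 5 comparisons share the unstimulated arrays.

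**Figure D3:**
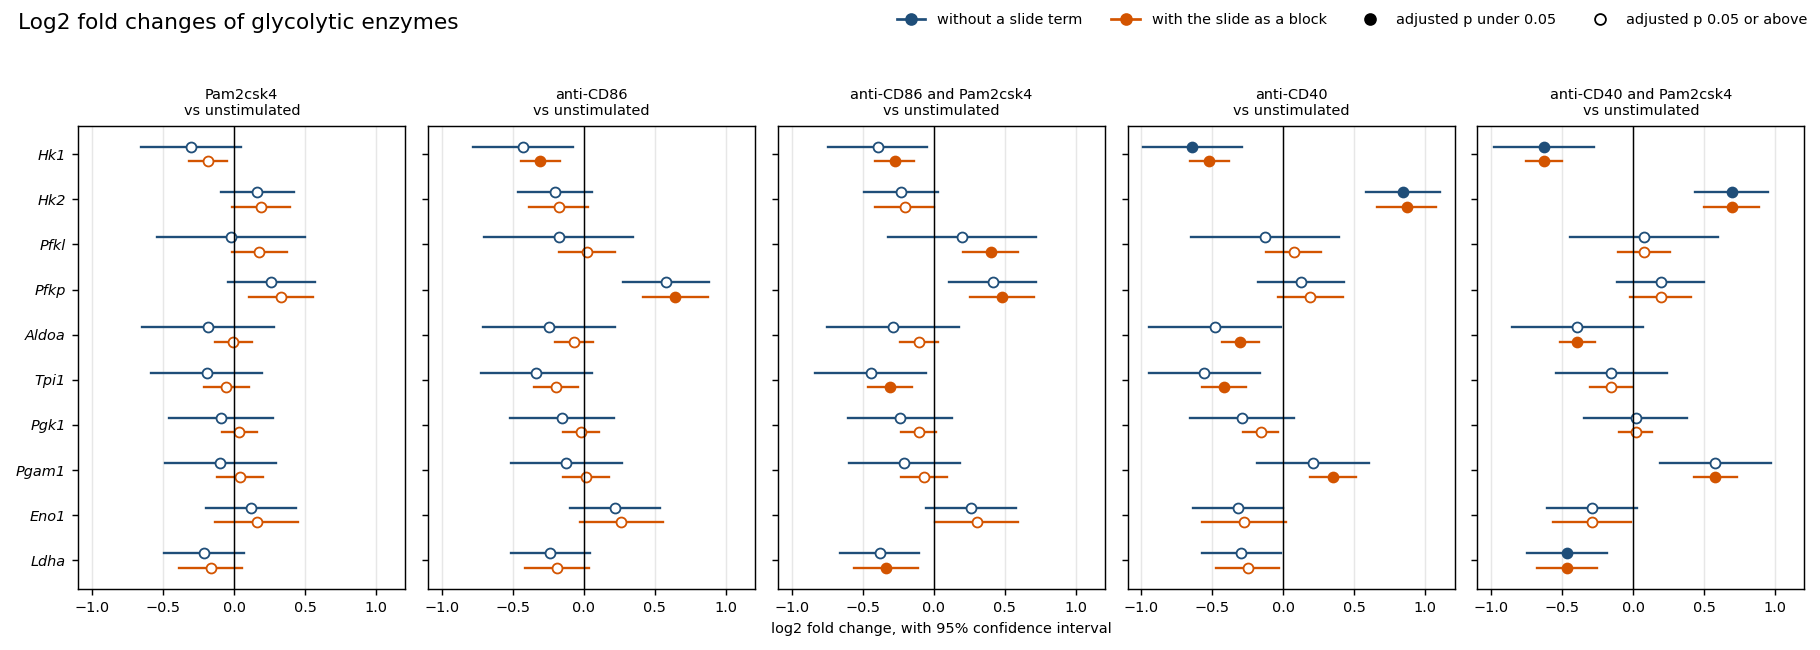
Log2 fold changes of the 10 glycolytic enzymes against unstimulated cells (x axis, with 95% confidence intervals) in 5 panels, one for each stimulus, from the fit of the conditions alone and from the slide-blocked fit. Filled points have an adjusted p under 0.05, and without the block these are Hk2 and Hk1 with anti-CD40, and Hk2, Hk1 and Ldha with anti-CD40 and Pam2csk4.

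The combined stimuli were set against their parts to ask what the second signal added. Adding anti-CD86 to Pam2csk4 called none of the 10 members (0.0633% of probes called), with log2 differences from -0.39, for Hk2, to 0.22, and 1 member, Hk2, had an unadjusted p under 0.05. Adding Pam2csk4 to anti-CD86 called none (0.225% of probes), with differences from -0.16 to 0.38 and 0 members at an unadjusted p under 0.05. In the slide-blocked fit, Hk2 (-0.39) and Tpi1 (-0.25) were called in the first of these (11.0% of probes) and Pfkl in the second (7.74%). Hk2 was lower by 0.36 on slide 1 and by 0.43 on slide 2.

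Adding anti-CD40 to Pam2csk4 called 2 of 10 members, Hk2 and Pgam1, both higher, against 9.97% of probes. Blocking on slide, 6 were called against 31.5%, the other four being Hk1 (-0.44), Aldoa (-0.39), Eno1 (-0.45) and Ldha (-0.30). Adding Pam2csk4 to anti-CD40 called none (2.91% of probes, 1 member at an unadjusted p under 0.05), and Tpi1 alone in the slide-blocked fit (0.26, 15.2% of probes). Between anti-CD40 and Pam2csk4 and anti-CD86 and Pam2csk4, 3 of 10 were called, Hk2 and Pgam1 higher and Eno1 lower, against 12.3% of probes, and 6 against 34.6% in the slide-blocked fit, where Hk1, Pfkl and Aldoa joined. In the comparison of anti-CD40 with anti-CD86, Hk2 and Eno1 were called (10.1% of probes), and in that with Pam2csk4, Hk2 alone (4.54%). The slide-blocked fit called 7 of 10 in each (34.8% and 28.1% of probes), Hk2 and Pgam1 higher and Hk1, Aldoa, Tpi1 and Eno1 lower in both, joined by Pfkp against anti-CD86 and Pgk1 against Pam2csk4, both lower.

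Whether the effect of Pam2csk4 differed in the presence of either antibody was tested as an interaction. No member passed for anti-CD86 (0.0190% of probes called) or for anti-CD40 (1.16%), nor in the slide-blocked fit (0.234% and 8.59%). Unadjusted p under 0.05 was reached by 0 and 1 members, and by 2 and 2 after blocking. The estimate furthest from 0 for each antibody was that of Tpi1 with anti-CD40 (0.60, 95% confidence interval 0.04 to 1.15, adjusted p = 0.238) and that of Pfkp with anti-CD86 (-0.43, -0.86 to 0.00, adjusted p = 0.969). The intervals are those of each gene alone, and neither estimate passed after adjustment.

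Further genes of glucose metabolism were read in the same way. The counts for these lists, here and below, stand beside the shares of all probes called in the same comparisons. These were 16.9% with anti-CD40, 18.2% with anti-CD40 and Pam2csk4, 0.146% with Pam2csk4, 2.17% with anti-CD86 and 10.8% with anti-CD86 and Pam2csk4. Of 19 other glycolytic enzymes, 16 were tested, and 1 rose and 3 fell with anti-CD40, 2 rose and 2 fell with anti-CD40 and Pam2csk4, none passed with Pam2csk4 or anti-CD86, and 1 rose and 2 fell with anti-CD86 and Pam2csk4. The list medians were -0.21 with anti-CD40 and -0.04 with anti-CD40 and Pam2csk4. Eno2, the enolase best known from neurons, rose 3.29-fold with anti-CD40 and 4.20-fold with anti-CD40 and Pam2csk4 (log2 fold changes 1.72 ± 0.19 and 2.07 ± 0.19, adjusted p = 0.00241 and 0.000546). Its signal was -2.42 and -2.67 on the unstimulated arrays, -0.62 and -1.03 with anti-CD40, and -0.45 and -0.50 with anti-CD40 and Pam2csk4. Eno2 rose in the conditions in which Eno1 was lowest. Eno2 also rose with anti-CD86 and Pam2csk4 (0.75 ± 0.19, adjusted p = 0.0457), where the Eno1 mean was the highest, at -0.94. Hkdc1, a hexokinase-like gene, rose with anti-CD40 and Pam2csk4 (0.87 ± 0.20, adjusted p = 0.0190). Ldhb, the lactate dehydrogenase subunit of heart, fell by 0.61, 0.59 and 0.69 with anti-CD40, anti-CD40 and Pam2csk4, and anti-CD86 and Pam2csk4. Adpgk, an ADP-dependent glucokinase, fell by 0.44, 0.46 and 0.56 in the same conditions. Gpi1, Gapdh and Pkm2, which fill the steps between the members and were chosen after their values were seen, passed in none of the 5 comparisons with unstimulated cells, with log2 fold changes from -0.52 to 0.20. Hk3, another hexokinase, fell by 0.61 with anti-CD40 alone among these comparisons. In the slide-blocked fit Gapdh was lower in 4 of them and Pkm2 was higher with anti-CD86 and Pam2csk4.

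Of 11 regulators of glycolytic genes 10 were tested, and 1 rose and 2 fell with anti-CD40, 1 rose and 3 fell with anti-CD40 and Pam2csk4, 1 fell with anti-CD86 and Pam2csk4, and none passed with Pam2csk4 or anti-CD86. Myc rose 3.03-fold with anti-CD40 and 4.90-fold with anti-CD40 and Pam2csk4 (1.60 ± 0.18 and 2.29 ± 0.18, adjusted p = 0.00242 and 0.000241). Its signal was 4.95 and 5.02 on the unstimulated arrays, 6.77 and 6.39 with anti-CD40, and 7.28 and 7.27 with anti-CD40 and Pam2csk4. Txnip, which restrains glucose uptake, fell by 0.76 and 0.85 in these conditions, and Vhl, part of the ligase that marks hypoxia-inducible factors for destruction, fell by 0.85 and 1.23 in them and by 0.62 with anti-CD86 and Pam2csk4. Egln1, the oxygen-sensing hydroxylase of the same route, fell by 0.73 with anti-CD40 and Pam2csk4 alone among the comparisons with unstimulated cells. The median of this list was -0.35 with anti-CD40 and -0.15 with anti-CD40 and Pam2csk4.

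Among 13 genes that govern pyruvate entry to mitochondria, 12 were tested, and 1 rose with anti-CD40 while 4 fell, 1 rose and 2 fell with anti-CD40 and Pam2csk4, and 4 fell with anti-CD86 and Pam2csk4. Its medians were -0.37 and -0.19 in the conditions with anti-CD40. Pdp2, the phosphatase that activates pyruvate dehydrogenase, rose by 0.51 with anti-CD40 and 0.77 with anti-CD40 and Pam2csk4, and Pdk2, a kinase that inactivates it, fell by 0.77 and 0.76. Pdha1 and Pdhx, which encode parts of the dehydrogenase complex, fell by 0.63 and 0.50 with anti-CD40. With anti-CD86 and Pam2csk4, Pdk2 fell by 0.77, Pdk1, another of these kinases, by 0.77 and Dlat, a further part of the complex, by 0.70. Pdk1 also fell by 0.60 with anti-CD40 and Pam2csk4. Between stimuli, Dlat was higher by 0.49 with anti-CD40 and Pam2csk4 than with anti-CD86 and Pam2csk4, and Pdk3, a kinase of the same family, gave -0.52 in anti-CD40 against anti-CD86. Of 8 pentose phosphate enzymes tested, 2 fell with anti-CD40 (Rpia by 0.82 and Taldo1 by 0.53), 2 with anti-CD40 and Pam2csk4 (Tkt by 0.90 and Taldo1 by 0.61), 2 with anti-CD86 and Pam2csk4 (H6pd by 0.69 and Taldo1 by 0.59), and none rose, where the list medians were -0.50 and -0.42 in the first 2 of these. Pfkfb4, one of 5 genes for the making and breakdown of fructose 2,6-bisphosphate, the activator of phosphofructokinase, fell by 0.65 and 0.96, and the other four did not pass.

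**Figure D4:**
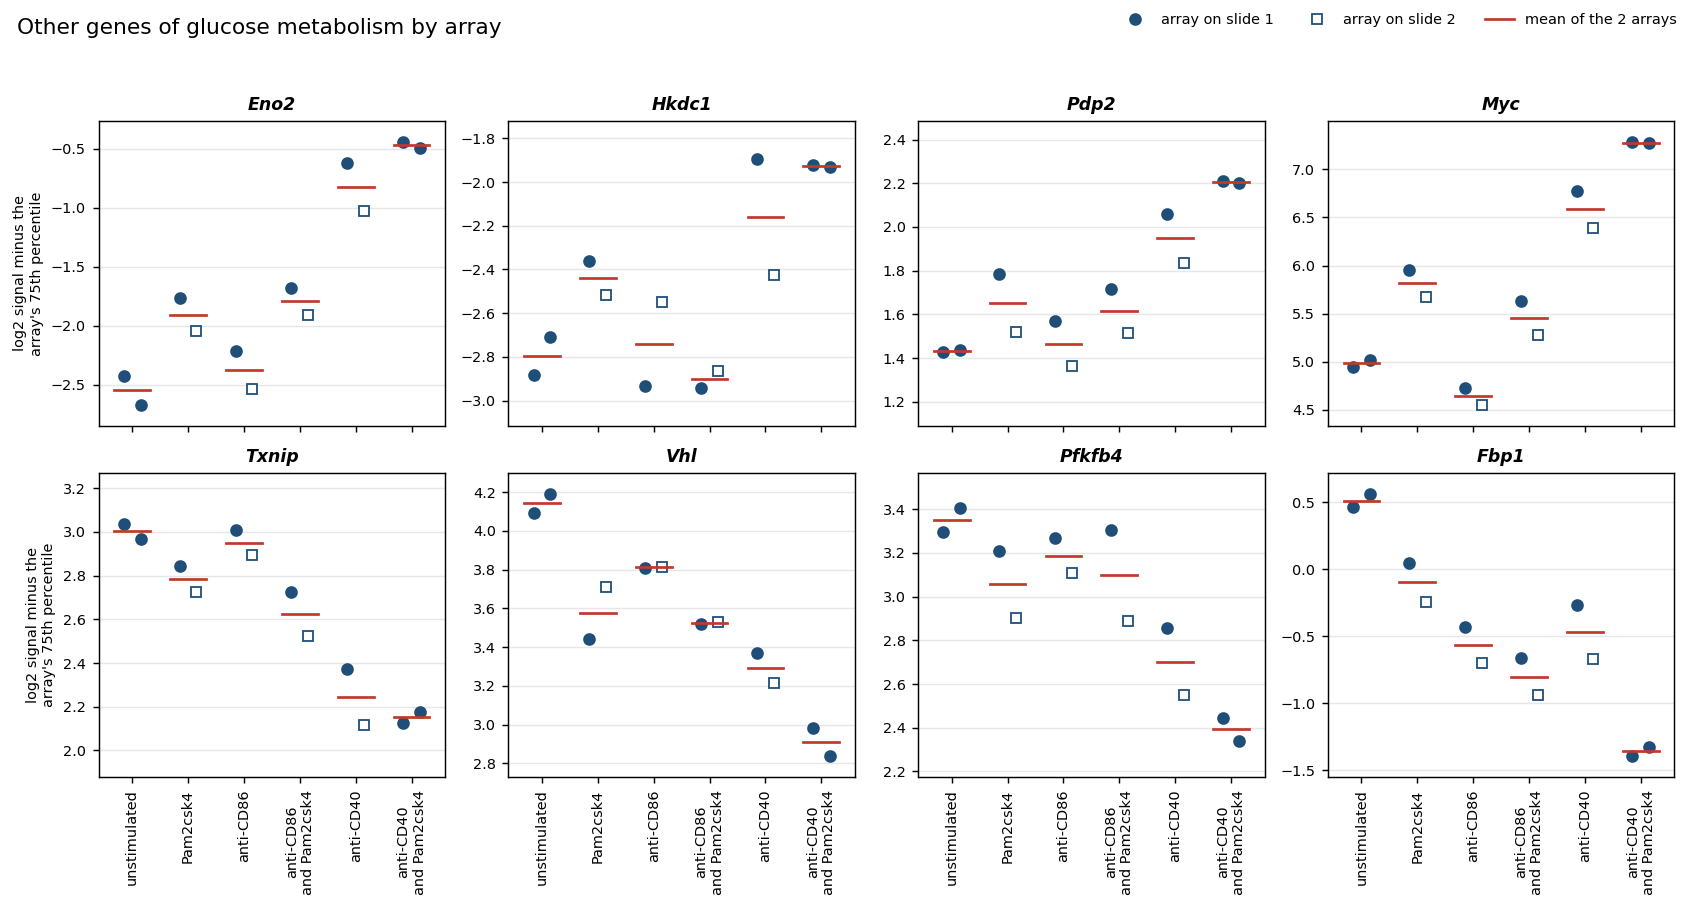
Log2 signal of 8 further genes of glucose metabolism on the 12 arrays (y axis, log2 units with the 75th percentile of each array at 0, and a range of its own in each panel) by condition, with filled circles for slide 1, open squares for slide 2 and a line at each mean of 2 arrays. Eno2 and Myc are highest on the 4 arrays with anti-CD40, and Fbp1 is lowest with anti-CD40 and Pam2csk4, at -1.39 and -1.33.

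Of 5 gluconeogenic enzymes tested, Fbp1 and Pck2 fell with anti-CD40, and Fbp1 and Pck1 fell with anti-CD40 and Pam2csk4, where the list medians were -0.50 and -0.61. Fbp1 alone fell with either condition that held anti-CD86 (by 1.08 and 1.31), and none of the 5 passed with Pam2csk4. Fbp1, fructose bisphosphatase, was 0.46 and 0.57 on the unstimulated arrays and -1.39 and -1.33 with anti-CD40 and Pam2csk4, a fall of 1.87 (adjusted p = 0.000691). Pck1 fell by 2.43 there. Liver markers moved with these genes. Alb, which encodes albumin, was between 1.25 and 2.20 on the 10 other arrays and -2.47 and -3.47 with anti-CD40 and Pam2csk4. The summed log2 signal of the liver markers on the array, a list chosen after the data were seen, was 2.43 to 3.55 on the 10 other arrays and -0.65 to -0.48 on these. Their part in the falls of Fbp1 and Pck1 was not tested.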

How the data were processed

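The deposited scanner files hold background-subtracted one-colour intensity values per spot, which the authors made with Agilent Feature Extraction 10.5.1.1, per the file headers. The deposited log2 table was used as an alternative only. Here each array's 75th percentile was subtracted from its log2 intensities (non-control spots), outlier spots were left out and repeated spots averaged. A probe was kept if both arrays of at least 1 condition had it well above background, and 31596 were tested with limma 3.58.1 (R 4.3.3), fitting the 6 conditions over the 12 arrays, with Benjamini-Hochberg adjustment over all of them (threshold 0.05). The script was tested on simulated data. A gene was read from its brightest unsaturated probe, and Aldoa, which had none, from the probe saturated on 1 array. The alternatives were other normalizations, background corrections, probe filters, probe choices, blocks and single arrays left out. Of each other list, those genes were named that passed the threshold without overlap between arrays well above background, at most 3 in each direction and comparison. Members and lists were chosen with earlier results of these data known. Whether probes also bind transcripts of pseudogenes was not tested. The isotype control of the study is not analysed here. 1 gene of the other lists and 1 marker gene are not reported here.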

Additional observations from a re-analysis of the deposited data

How the results depend on the processing

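The precision is limited by 2 arrays per condition. Each count of members was recomputed under every alternative, and 163 of 218 such counts were within 1.5 times the value given. The number of probes called on the whole array also moved with the setting, so that changes in these counts are not read as results about the members. After blocking on slide the counts were 5 (anti-CD40), 5 (anti-CD40 and Pam2csk4), 2 (anti-CD86) and 5 (anti-CD86 and Pam2csk4) against unstimulated cells, and 2, 1, 6, 1, 6, 7 and 7 in the comparisons among stimuli, in the order of the report. Slide 1 alone gave 4, 5 and 2 for anti-CD40, anti-CD40 and Pam2csk4, and anti-CD86 and Pam2csk4 against unstimulated cells, 4 for anti-CD40 and Pam2csk4 against Pam2csk4, 1 for anti-CD40 against anti-CD86 and 0 for anti-CD40 against Pam2csk4. With the replicate number as a block the counts were 4 for anti-CD40, 1 for anti-CD86 and 3 for anti-CD86 and Pam2csk4. Correlations of the replicate differences ran from 0.54 to 0.67 between conditions with replicate 2 on slide 2. They ran from -0.11 to 0.07 in pairs with unstimulated cells or anti-CD40 and Pam2csk4, both on slide 1 alone. The numbers thus do not pair the arrays of all conditions, and elsewhere they coincide with the slide. Quantile normalization gave 3, 1 and 1 for anti-CD40, anti-CD86, and anti-CD86 and Pam2csk4 against unstimulated cells (6726, 2040 and 4580 probes called). It gave 4 for anti-CD40 and Pam2csk4 against Pam2csk4 (4258 probes). Normexp correction gave 1 for both conditions with anti-CD86 (1350 probes called with anti-CD86 and 4407 with anti-CD86 and Pam2csk4). A fit without empirical Bayes moderation gave 1 for anti-CD86 (1367 probes) and 1 for anti-CD40 and Pam2csk4 against Pam2csk4 (3196 probes). Probes well above background on all 12 arrays gave 1 for anti-CD86 (1394 probes). Without the filter on dim probes at most 1 member was called in any comparison, and that was Hk2.

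Leaving out 1 array at a time gave 0 to 3 members for anti-CD40 and 0 to 1 for anti-CD40 and Pam2csk4 against unstimulated cells, and 0 in each case for anti-CD40 and Pam2csk4 against Pam2csk4. It gave 1 to 2 for anti-CD40 and Pam2csk4 against anti-CD86 and Pam2csk4, 1 for anti-CD40 against anti-CD86, 0 to 1 for anti-CD40 against Pam2csk4 and 0 in the others. Of 702 single values of members, 7 had the other sign. Of these, 3 turned without replicate 1 of anti-CD86 and Pam2csk4. Over the arrays left out, Pfkl ran from -0.048 to 0.45 with anti-CD86 and Pam2csk4 against unstimulated cells, and in anti-CD40 and Pam2csk4 against anti-CD86 and Pam2csk4 Pfkl ran from -0.37 to 0.13 and Aldoa from -0.30 to 0.079. The other four rest on probes that give only bounds. The median over both Pfkp probes was -0.85 with anti-CD86, -0.93 with anti-CD86 and Pam2csk4, and 0.31 in anti-CD40 against anti-CD86. The second probe was not well above background on any array with anti-CD86, so that no size is read from these. Against unstimulated cells it was lower in both conditions with anti-CD86, opposite to the brighter probe. No sign is read for anti-CD40 against anti-CD86. The brightest Aldoa probe, saturated on 8 arrays, gave 0.011 in the last comparison. The causes of the other changes were not tested.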
